A study of Mus musculus with 9 samples.

Results

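The mature neurons of the olfactory bulb (OB) described here are 101 cells of a sort of GFP-positive cells from Dcx-GFP mice. They were taken from 2017 OB cell barcodes, of 7402 in the whole series, by raw counts of unique molecular identifiers (UMIs, 1 for each captured RNA molecule). The cells were chosen by these counts alone. A barcode was a member if it held at least 1500 UMIs, at most 10% mitochondrial UMIs, at least 1 UMI of Syt1 and at least 1 of Snap25, and no UMI of Pdgfra or Slc1a3. Syt1 encodes the calcium sensor of synaptic vesicle release and Snap25 a SNARE protein of the same machinery, while Pdgfra marks oligodendrocyte precursors and Slc1a3 is an astroglial glutamate transporter. Of the 1345 OB barcodes within the limits of depth and mitochondrial share, 101 met the rule, with 51 from adult, 42 from middle-aged and 8 from aged mice.

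All mice were heterozygous for Dcx-GFP, an allele in which the doublecortin (Dcx) promoter drives green fluorescent protein, and all groups share it. The ages were 3 months (adult), 14 months (middle-aged) and 24 months (aged), with males and females in each group. For each age the OBs of 4 to 5 mice were pooled and dissociated, viable GFP-positive cells were sorted, and 1 library was made with the Chromium Single Cell 3′ v2 chemistry, so each age is a single pool without a replicate. By rising age, the libraries held 2422674, 3017198 and 1412634 UMIs over all barcodes, and the mature neurons held 266941, 334763 and 45353 of these. Dcx is a gene of migrating and immature neurons, so the gate favours cells in which its promoter is or was active. A mature neuron found here is a neuron that passed this gate, and GFP itself was not analysed. A UMI of Dcx was found in 47 of the 101 cells (46.5%), against 8.81% of 999 Slc1a3-positive barcodes without Syt1, called astroglia below, at median depths of 5201 and 3802 UMIs.

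The OB is the first relay of smell. Mitral and tufted cells are its glutamatergic projection neurons, which receive input from the olfactory nerve and send axons to the cortex, and smaller glutamatergic cells lie around the glomeruli. Granule cells and periglomerular cells are GABAergic interneurons, most of them without a long axon, and they continue to be added throughout adult life by neuroblasts that migrate from the subventricular zone (SVZ). Vesicular glutamate transporters (Slc17a6, Slc17a7) load glutamate into synaptic vesicles, Gad1 and Gad2 make GABA, and Slc32a1 loads GABA into vesicles.

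Genes that the rule did not use were read to check the label. Meg3, a long noncoding RNA of neurons, was found in all 101 cells and Snhg11, another neuronal noncoding RNA, also in all 101, against 22.8% and 3.90% of the astroglia. After each cell had been thinned to 1500 UMIs, the shares were 100% and 98.02% of the neurons against 14.2% and 1.70% of the astroglia. Vamp2, the vesicle SNARE protein, was found in 90 of 101 neurons, with 1259, 1305 and 1455 CPM (UMIs scaled to a total of 1e6) in adult, then middle-aged, then aged neurons, an order kept for all triplets of values below. The astroglia held 149.9, 139 and 137 CPM of Vamp2. In each library the neurons lay above the astroglia for all 3 genes. Rbfox3, the gene of the NeuN antigen of mature neurons, was detected in 18 of 39 neurons with Gad1 and in 7 of 45 with Slc17a6 or Eomes, and was sparse.

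Markers of other cells were low in the neurons and were summed over each list. The 9 astrocyte genes summed to 131, 259.9 and 419 CPM in the neurons, with Aldoc, a glycolytic enzyme of astrocytes and some neurons, as the most abundant, against 10746 CPM in the astroglia when Slc1a3, which the rule used, is left out. The 6 oligodendrocyte genes summed to 199, 59.7 and 88.2 CPM. Those of oligodendrocyte precursors came to 127 CPM over the 3 libraries, of which 122 CPM were C1ql1. Neurons held almost no RNA of blood or vessel cells. The sums were 3.09 CPM for 6 microglial genes, 9.27 CPM for 5 endothelial and pericyte genes and 6.18 CPM for 4 erythrocyte genes. Ensheathing glia genes summed to 43.3 CPM, olfactory sensory neuron genes to 71.1 CPM, most of it Gnal, and proliferation genes to 75.7 CPM, most of it Pcna.

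Of the members, 2 had exactly 1 UMI of both Syt1 and Snap25, 16 had 1 UMI of Syt1 and 5 had 1 UMI of Snap25. Outside the rule, 10 barcodes had Syt1 alone and 35 had Snap25 alone. A further 22 barcodes with both genes were left out for a UMI of Slc1a3, with 4, 8 and 10 by rising age, and 24 with both genes exceeded the mitochondrial limit, with 15, 9 and 0 by rising age. The member with the fewest UMIs held 1573, and the deepest of 6 barcodes just below the limit of depth held 1488. No member was called a doublet by Scrublet, which called 5, 3 and 5 barcodes by rising age. No barcode of a member recurred in another OB library, and 2 recurred in a library of another region.

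The neurons were classed by UMIs of a GABAergic gene and of 2 glutamatergic ones. Gad1 was present without Slc17a6 or Eomes in 39 cells, called Gad1 neurons here, with 26, 11 and 2 by rising age. Slc17a6 or Eomes, a T-box factor of mitral and tufted cells, was present without Gad1 in 45 cells, called Slc17a6/Eomes neurons, with 15, 27 and 3. No cell had UMIs of Gad1 together with Slc17a6 or Eomes. The exact 95% Clopper-Pearson limit of 3.59% of the 101 cells applies to cells with UMIs of both and not to cells that express both, as sparse genes are missed (Slc17a6 was seen in 35 of the 45 Slc17a6/Eomes neurons, and in 18 when each cell was thinned to 1500 UMIs). In the astroglia, at a median of 3802 UMIs, a UMI was found in 6.51% of cells for Gad1, 0.2% for Slc17a6 and 0.4% for Eomes. The other 17 cells held none of the 3 genes. Among the Slc17a6/Eomes neurons 22 held both genes, 13 held Slc17a6 alone and 10 held Eomes alone. The classes differed in depth, with a median of 4276 UMIs per cell in Gad1 neurons, 9253 in Slc17a6/Eomes neurons and 2860 in the cells with neither. Median mitochondrial shares were 2.32%, 3.43% and 7.09%.

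Cell by cell, sums of genes that did not define the classes were plotted. These genes were picked after their values had been seen, so the counts below are descriptions and no test of the classes. Calb1, Pvalb and Calb2, listed as interneuron subtype genes, and Tbx21, listed with mitral and tufted cells, were not among them. Slc17a7, a vesicular glutamate transporter, was counted with the mitral and tufted cell genes. The sum of 8 interneuron genes (Gad2, Slc32a1, Dlx1, Sp8, Meis2, Synpr, Penk and Tac1) exceeded that of 7 mitral and tufted cell genes (Tbr1, Cdhr1, Reln, Ntng1, Cck, Tshz2 and Slc17a7) in 39 of 39 Gad1 neurons. In Slc17a6/Eomes neurons the mitral and tufted sum was the higher one in 38 of 45 cells and the interneuron sum in 7. In 22 Gad1 neurons no mitral or tufted cell gene had a UMI, and in 28 Slc17a6/Eomes neurons no interneuron gene had one. Of the 17 cells with neither defining gene, the mitral and tufted sum was the higher one in 11 and the interneuron sum in 6, and 5 of the 17 held UMIs of both sums. With a narrower choice of genes, also made after seeing the values, 13 held Slc17a7, Tbr1, Cdhr1, Reln or Cck and none of Gad2, Slc32a1, Penk or Tac1, and the other 4 showed the reverse.

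**Figure D1:**
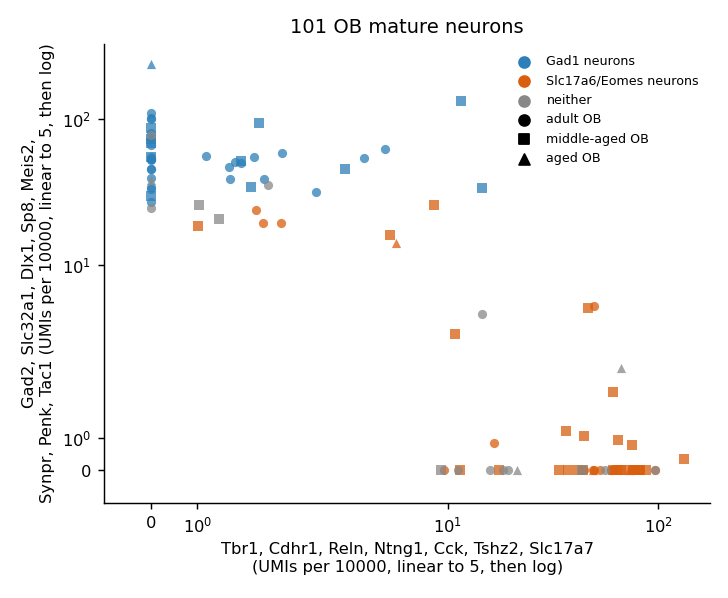
Each of the 101 neurons is 1 point, with its summed mitral and tufted cell genes on one axis and its summed interneuron genes on the other, in UMIs per 10000 on an axis that is linear to 5 and logarithmic above, coloured by class. The 39 Gad1 neurons all lie on the interneuron side, and 38 of the 45 Slc17a6/Eomes neurons lie on the mitral and tufted side. The summed genes were picked after their values had been seen, so this is no test of the classes.

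The share of mature neurons among barcodes within the limits was 11.5% at 3 months (51 of 443, exact 95% interval 8.69% to 14.9%), 7.09% at 14 months (42 of 592, 5.16% to 9.47%) and 2.58% at 24 months (8 of 310, 1.12% to 5.02%). The intervals cover counting error only, and the adult and aged intervals do not overlap. With 1 library per age no test of age was possible. The share depends on the cells that were left out for Slc1a3, and without that condition it was 12.4%, 8.45% and 5.81% by rising age (the last with an interval of 3.48% to 9.02%). The order of the 3 ages was unchanged by this, while the aged cells went from 8 to 18. With every barcode thinned to 1500 UMIs before the rule was applied, the shares were 9.71% (7.11% to 12.9%), 6.08% (4.30% to 8.32%) and 3.55% (1.78% to 6.26%). In a share of sorted cells, fewer neurons and more of the other sorted cells cannot be told apart.

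Between the classes, the balance differed among the libraries. Slc17a6/Eomes neurons were 15 of 41 classed neurons at 3 months (36.6%, 22.1% to 53.1%), 27 of 38 at 14 months (71.1%, 54.1% to 84.6%) and 3 of 5 at 24 months (60%, 14.7% to 94.7%). The adult and middle-aged intervals do not overlap, and the aged interval includes both values. Median depth over all neurons was 3968 UMIs in the adult and 7315.5 UMIs in the middle-aged library. Within the classes it was 3950.5 and 4363 UMIs in Gad1 neurons and 9928 and 9253 UMIs in Slc17a6/Eomes neurons. When every cell was thinned to 1500 UMIs, the shares were 26.5% (12.9% to 44.4%) and 64.3% (44.1% to 81.4%), and these intervals overlap narrowly.

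**Figure D2:**
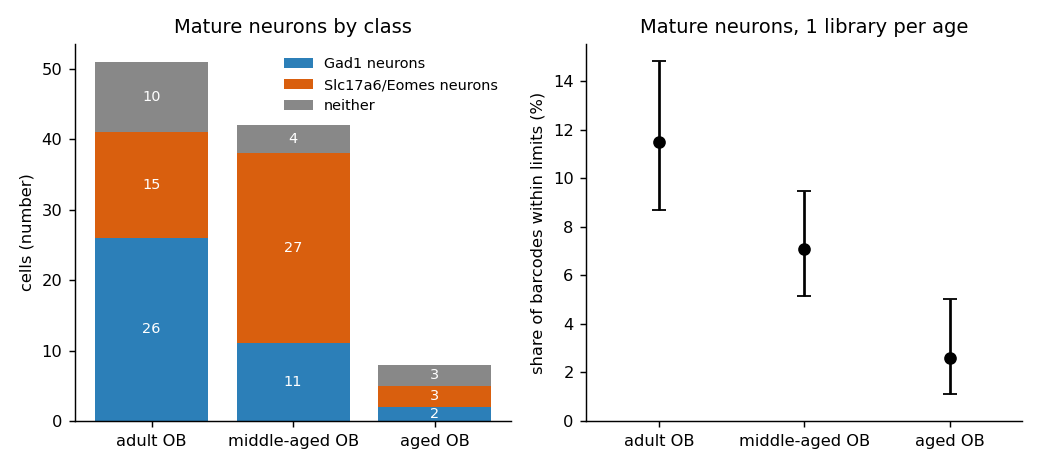
The left panel stacks the number of mature neurons of each class at each age, and the right panel gives their share of barcodes within the limits with exact 95% intervals, which cover counting error only. The share was 11.5%, 7.09% and 2.58% at 3, 14 and 24 months.

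Which genes separate the GABAergic from the glutamatergic neurons was asked next, with the UMIs of each class summed per library. The adult and middle-aged libraries entered the edgeR quasi-likelihood test, with the library as a block and Benjamini-Hochberg adjustment over 3492 genes, while the aged library had too few cells for it, with 2 Gad1 and 3 Slc17a6/Eomes neurons. At an adjusted p under 0.05, 171 genes (4.9%) were higher in Gad1 neurons and 188 (5.38%) were higher in Slc17a6/Eomes neurons. With 2 libraries there was 1 residual degree of freedom, and edgeR took 1 trend of spread for all genes. The SE printed with a log2 fold change, here and below, restates the edgeR test statistic. It does not measure the spread of a gene between libraries. A gene was tested if it had at least 30 UMIs over the sums, and 854 of the 3492 genes reached that only through the class where they were higher, since they would not have at the level of the other class in both. Counts over the tested members of a list are therefore descriptions, and no list median is given for lists in which most members were of this kind. The DESeq2 Wald test called 17 and 13 genes, all of them also called by edgeR in the same direction, and after each cell had been thinned to 1500 UMIs edgeR called 25 and 25 of 689 genes.

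Of 4 tested GABAergic genes other than Gad1, 3 were higher in Gad1 neurons, beside 4.9% of all genes tested, and these 3 had reached the minimum of UMIs only through that class. Slc32a1 (chr2:158607260-158615747, GRCm38.p6), the vesicular GABA transporter, was at 593, 349.9 and 369 CPM in Gad1 neurons of the 3 ages and had no UMI in any Slc17a6/Eomes neuron. It was at least 64.7-fold higher in Gad1 neurons, against a floor of 3 UMIs over the other class (edgeR adjusted p = 2.91e-22), and was found in 32 of 39 cells. The groups do not overlap in any library. Gad2, the second GABA-synthesizing enzyme, was at 336, 507 and 646 CPM in Gad1 neurons and 62.7, 27.8 and 0 CPM in Slc17a6/Eomes neurons. Its log2 fold change was 3.35 ± 0.47 (SE, n = 2 libraries, edgeR adjusted p = 1.56e-10). Abat, which degrades GABA, was not called.

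Of 20 transcription factors of olfactory interneurons, 4 had enough UMIs and 16 did not. The 4 were higher in Gad1 neurons, beside 4.9% of all genes tested, and 3 of them had reached the minimum only through that class. Meis2, a TALE homeodomain factor of SVZ-derived interneurons, was at 1637, 1207 and 2030.1 CPM in Gad1 neurons and 243, 87.3 and 95.03 CPM in Slc17a6/Eomes neurons. The difference was 3.27 ± 0.32 on the log2 scale (SE, n = 2 libraries, edgeR adjusted p = 5.97e-21), with no overlap. It was found in 38 of 39 Gad1 and 9 of 45 Slc17a6/Eomes neurons, but also in 479 of the 999 astroglia, so a UMI of it does not mark a neuron. Dlx1, a homeodomain factor of GABAergic fate, was at 195, 157 and 277 CPM in Gad1 neurons and had no UMI in Slc17a6/Eomes neurons, at least 23.05-fold lower (edgeR adjusted p = 1.69e-10). Sp8, a zinc finger factor of periglomerular and granule cells, was at 159, 175 and 1107 CPM against 0, 7.94 and 0 CPM (log2 fold change 4.89 ± 0.78, SE, edgeR adjusted p = 3.63e-08). The noncoding Dlx6os1 was the fourth.

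The neuropeptide genes Tac1 and Penk were higher in Gad1 neurons by the edgeR test, while the DESeq2 Wald test called neither (adjusted p = 0.63 and 0.84). This was not particular to them. Of the 24 genes named for the size of their class difference, DESeq2 called 4, did not call 16 and gave no adjusted p for the rest. Tac1 (chr6:7555061-7562978), the precursor of substance P, was at 283, 1015 and 0 CPM in Gad1 neurons of the 3 ages and at 0 in every Slc17a6/Eomes library. It was at least 66.9-fold higher (edgeR adjusted p = 1.41e-28), yet it was found in 11 of 39 cells, with up to 14 UMIs in an adult and 26 in a middle-aged cell. Penk (chr4:4133536-4138815), the enkephalin precursor, was at 788, 87.5 and 9689 CPM and again at 0 in all Slc17a6/Eomes neurons. It was at least 69.9-fold higher (edgeR adjusted p = 2.68e-17) and was found in 24 of 39 Gad1 neurons and in 6 of the 999 astroglia. The 2 peptides marked partly different cells, with 5 Gad1 neurons that held both, 19 with Penk alone, 6 with Tac1 alone and 9 with neither.

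Synpr, a synaptic vesicle membrane protein of granule cells, was at 1168, 1977 and 3414 CPM in Gad1 and 353, 95.3 and 143 CPM in Slc17a6/Eomes neurons, a difference of 3.01 ± 0.32 on the log2 scale (SE, n = 2 libraries, edgeR adjusted p = 2.33e-18). Pcp4, a calmodulin-binding protein, was at 7274, 4374 and 369 CPM in Gad1 and 2485, 695 and 143 CPM in Slc17a6/Eomes neurons (log2 fold change 2.13 ± 0.25, SE, edgeR adjusted p = 1.04e-14). Both were detected in most Gad1 neurons, Synpr in 35 and Pcp4 in 34 of 39. The markers of periglomerular subtypes were sparse. Th, the dopamine-synthesizing enzyme, was found in 11 Gad1 neurons and 1 Slc17a6/Eomes neuron and had too few UMIs for the test, and Calb2 (calretinin) was found in 10 and 10, against 1 and 30 of the 999 astroglia for Th and Calb2. Th and Calb2 were found together in 5 Gad1 neurons, Th alone in 6 and Calb2 alone in 5. Calb2 was at 186 and 419.9 CPM in adult and middle-aged Gad1 neurons and 109.7 and 191 CPM in Slc17a6/Eomes neurons, and did not pass (log2 fold change 1.02 ± 0.41, SE, edgeR adjusted p = 0.101). Calb1 and Pvalb, calcium-binding proteins listed as interneuron subtype markers, went the other way and were absent from all Gad1 neurons. Calb1 was at 219, 63.5 and 0 CPM in Slc17a6/Eomes neurons (6 of 45 cells, at least 6.58-fold higher, edgeR adjusted p = 2.72e-06) and Pvalb at 172, 75.4 and 47.5 CPM (12 cells, at least 6.13-fold, edgeR adjusted p = 1.3e-05). Of the 6 cells with Calb1, 5 held Pvalb. Among the mitral and tufted cell genes, Tbr1 was found in 10 and Cdhr1 in 9 of the 12 cells with Pvalb, but Cck in 5, Ntng1 in 3, Reln in 1 and Tshz2 in 1. In all, 4 of the 7 tested subtype genes were higher in Gad1 neurons, 2 lower and 1 not called, beside 4.9% and 5.38% of all genes tested, and 4 of the 7 had reached the minimum only through the class where they were higher.

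Further genes named for the size of their difference in Gad1 neurons were at 0 in Slc17a6/Eomes neurons of both tested libraries or nearly so. Necab2, a neuronal calcium-binding protein, was at 319 and 367 CPM in adult and middle-aged Gad1 neurons, at least 42.4-fold higher (edgeR adjusted p = 2.33e-18). Syt6, a synaptotagmin, was at 274 and 227 CPM, at least 32.7-fold higher (edgeR adjusted p = 2.8e-13). By the same rule Syt10, Lamp5, Ctxn3, Snx7, Pbx3 and Kank3 were named, with edgeR adjusted p-values between 2.39e-11 and 7.22e-07.

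Genes of mitral and tufted cells were found in the Slc17a6/Eomes neurons. Of 17 listed genes 8 were tested, and 9 were not, Eomes among them because the rule used it. The 8 were higher in these neurons, beside 5.38% of all genes tested, and 6 of them had reached the minimum only through that class. Cck (chr9:121489824-121495694), the cholecystokinin peptide of tufted cells, was at 1913, 3127 and 1330.4 CPM in Slc17a6/Eomes neurons and 0, 349.9 and 0 CPM in Gad1 neurons. The log2 fold change was −4.33 ± 0.35 (SE, n = 2 libraries, edgeR adjusted p = 6e-30), with 33 of 45 against 2 of 39 cells. Within the class, Cck was found in 31 cells with Eomes but in only 2 of the 13 with Slc17a6 alone. Of the 20 Cck UMIs in Gad1 neurons, 19 lay in 1 middle-aged cell. Cdhr1, a protocadherin of mitral and tufted cells, was at 415, 687 and 475 CPM against 0, 17.5 and 0 CPM (−6.18 ± 0.70, SE, edgeR adjusted p = 3.14e-16), and Reln, the secreted glycoprotein reelin of mitral cells, at 447, 583 and 950.3 CPM against 0, 17.5 and 0 CPM (−6.13 ± 0.70, SE, edgeR adjusted p = 1.38e-15). Neither overlapped between the classes in any library.

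Tbr1, a T-box factor of glutamatergic projection neurons, was at 180.3, 131 and 333 CPM and was found in 29 of 45 Slc17a6/Eomes neurons, in none of the 39 Gad1 neurons and in none of the 999 astroglia. It was at least 8.37-fold higher (edgeR adjusted p = 2.01e-06). Tbx21, the T-box factor most often used to mark mitral and tufted cells, was found in 1 Slc17a6/Eomes neuron only and could not be tested. Ntng1, an axonal adhesion protein, was present in both classes, at 525, 675 and 903 CPM against 115, 87.5 and 0 CPM (−2.43 ± 0.40, SE, edgeR adjusted p = 9.31e-08). Tshz2, a zinc finger factor, was at 274, 294 and 428 CPM against 0, at least 16.3-fold higher (edgeR adjusted p = 1.56e-10), and the basic helix-loop-helix factors Neurod1 and Neurod2 were the remaining genes of the list.

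Slc17a7 (chr7:45163921-45176139), the second vesicular glutamate transporter, was at 321, 591 and 428 CPM in Slc17a6/Eomes neurons and had no UMI in Gad1 neurons (at least 28.4-fold, edgeR adjusted p = 2.89e-15). It was found in 31 of 45 cells, and up to 74 of its UMIs lay in 1 middle-aged cell. Slc38a1, a glutamine transporter, was not called. Outside the lists, genes were named for the size of their fitted difference. Fst (chr13:114452262-114458989), the activin antagonist follistatin, was at 658 and 1052 CPM in adult and middle-aged Slc17a6/Eomes neurons and at 0 in Gad1 neurons (at least 52.2-fold, edgeR adjusted p = 2.84e-25). Ly6g6e (chr17:35076868-35078804), a Ly6 family surface protein, was at 376 and 1417 CPM against 0 (at least 60.5-fold, edgeR adjusted p = 9.23e-24). Nmb, the peptide neuromedin B, was at 619 and 619 CPM against 0 (at least 35.1-fold, edgeR adjusted p = 1.66e-20). Each of the 3 was absent from every Gad1 neuron, also in the aged library, but the UMIs were unevenly spread, with Ly6g6e at 168 UMIs in 1 middle-aged cell and 39 in 1 adult cell and Nmb at 89 and 51. By the same rule Tmem163, Nppc (C-type natriuretic peptide), AI593442 and Cbln1 (a synaptic organizer) were named, with edgeR adjusted p-values between 3.97e-12 and 6.86e-07.

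Of 15 tested genes of synaptic vesicle release 2 were higher in Slc17a6/Eomes neurons and none in Gad1 neurons, beside 5.38% and 4.9% of all genes tested, and the median log2 fold change was −0.26, beside −0.01 for all genes tested. Of the 15, 2 had reached the minimum of UMIs only through the class where they were higher, and 1 of these was called. Vamp2 was at 1637 and 1277 CPM in adult and middle-aged Gad1 neurons and 1089.6 and 1322 CPM in Slc17a6/Eomes neurons, and Rab3a, a vesicle GTPase, at 1229.95 and 1085 CPM and 1740.3 and 1341 CPM. The 2 called genes were Sv2b, a vesicle glycoprotein, at 0 in Gad1 neurons and at 94.1 and 115 CPM in Slc17a6/Eomes neurons (at least 6.13-fold, edgeR adjusted p = 0.000117), and Pclo, a scaffold of the active zone (−1.56 ± 0.47, SE, edgeR adjusted p = 0.0119).

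Of 10 tested genes of neurofilaments and mature neurons, 5 were higher in Slc17a6/Eomes neurons (Nefm, Nefl, Thy1, Uchl1 and Meg3) and Rbfox3 alone was higher in Gad1 neurons, beside 5.38% and 4.9% of all genes tested. Of the 10, 2 had reached the minimum of UMIs only through the class where they were higher, and these 2 were called. Nefm, the medium neurofilament subunit, was at 8.85 and 17.5 CPM in adult and middle-aged Gad1 neurons and 133 and 67.5 CPM in Slc17a6/Eomes neurons (−3.04 ± 0.86, SE, edgeR adjusted p = 0.00605). Rbfox3 was at 204 and 175 CPM against 23.5 and 27.8 CPM (2.85 ± 0.60, SE, edgeR adjusted p = 5.92e-05). Of 8 tested genes of immature neurons 2 were higher in each class, with Sox11 (3.23 ± 0.64, SE, edgeR adjusted p = 2.03e-05) and Dcx (1.57 ± 0.50, SE, edgeR adjusted p = 0.0198) higher in Gad1 neurons, and Stmn1 and Stmn2, which regulate microtubules, higher in Slc17a6/Eomes neurons (−1.39 ± 0.26 and −1.29 ± 0.33, SE, edgeR adjusted p = 3.46e-06 and 0.00171). Of the 8 genes of immature neurons, 1 had reached the minimum only through the class where it was higher, and it was called. Dcx was at 150.4, 262 and 461 CPM in Gad1 and 78.4, 63.5 and 0 CPM in Slc17a6/Eomes neurons.

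Among 6 tested GABA-A receptor subunits 1 was higher in Gad1 neurons and 3 in Slc17a6/Eomes neurons, beside 4.9% and 5.38% of all genes tested. Of the 6, 2 had reached the minimum of UMIs only through the class where they were higher, and these 2 were called. Gabra5 was higher in Gad1 neurons, at 239 and 69.98 CPM in the adult and middle-aged library against 7.84 and 3.97 CPM (4.43 ± 0.80, SE, n = 2 libraries, edgeR adjusted p = 1.91e-06). Gabrb1, a beta subunit, was among those higher in Slc17a6/Eomes neurons, at 172 and 183 CPM against 17.7 and 105 CPM (−1.73 ± 0.57, SE, edgeR adjusted p = 0.0264). The libraries did not overlap for either gene. Among 8 tested ionotropic glutamate receptor subunits, 3 were higher in Gad1 neurons, beside 4.9% of all genes tested, and 5 were not called. Of the 8, 3 had reached the minimum only through the class where they were higher, and 2 of these were called. Grin2b, an NMDA receptor subunit, was at 681, 682 and 923 CPM against 133, 123 and 143 CPM (2.45 ± 0.35, SE, edgeR adjusted p = 4.38e-10), and Gria3, an AMPA receptor subunit, at 248 and 122 CPM against 0 and 11.9 CPM in the adult and middle-aged library (4.38 ± 0.73, SE, edgeR adjusted p = 1.2e-07). Grin2a was the third (3.10 ± 0.62, SE, edgeR adjusted p = 2.01e-05). Of 16 voltage-gated channel genes, 3 were higher in Slc17a6/Eomes neurons, the potassium channels Kcna2 and Kcnq3 and the sodium channel subunit Scn2b, and 13 were not called, beside 5.38% higher in these neurons of all genes tested. These 3 channel genes had reached the minimum of UMIs only through that class.

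**Figure D3:**
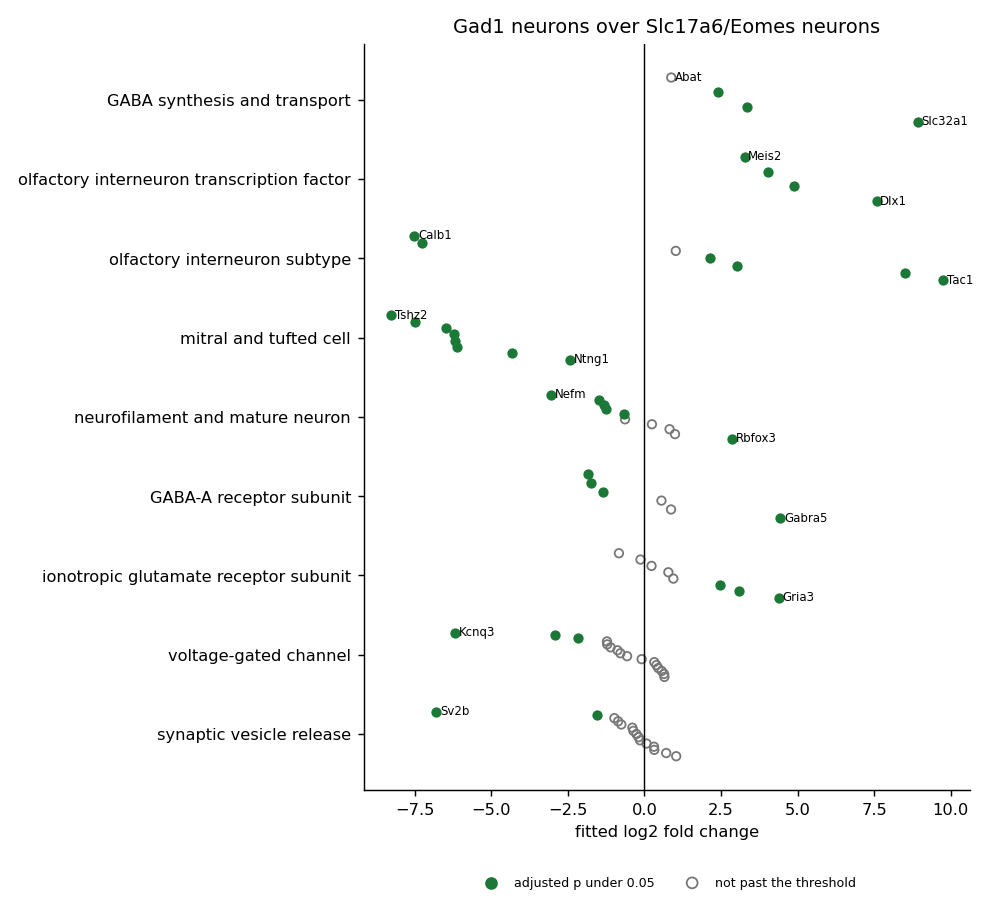
Each point is 1 tested gene of a list, at its fitted log2 fold change of Gad1 over Slc17a6/Eomes neurons in the adult and middle-aged library, filled where the edgeR adjusted p was under 0.05. The fitted values of genes at 0 in 1 class are not bounds. The GABA and interneuron factor lists lie on the Gad1 side, the 8 tested mitral and tufted cell genes lie on the other side, and of the 15 vesicle release genes Sv2b and Pclo were called.

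In glial and other lists few genes were tested between the classes. The called genes Aldoc, C1ql1 and Nr4a1 had reached the minimum of UMIs only through the class where they were higher. Aldoc was higher in Slc17a6/Eomes neurons (−2.32 ± 0.79, SE, edgeR adjusted p = 0.0344) and so was C1ql1, listed with oligodendrocyte precursors (−2.15 ± 0.60, SE, edgeR adjusted p = 0.00538). Pdgfra was absent by the rule, and the other precursor genes were at or near 0. Slc1a2, Pcna, the antigen presentation genes H2-D1 and B2m and the sex-linked genes Xist and Eif2s3y were not called. Among 5 early response genes Nr4a1 was called as higher in Gad1 neurons (2.61 ± 0.65, SE, edgeR adjusted p = 0.00128), beside 4.9% of all genes tested. Its direction was not shared by the libraries, since it was at 301 and 0 CPM in adult and middle-aged Gad1 neurons and 0 and 31.8 CPM in Slc17a6/Eomes neurons.

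To show regulatory sequence of genes called between the classes, the 250 bases before the start of each called gene were searched on both strands for 3 short motifs. These were TAATTA (a homeodomain core, which reads the same on both strands), CAGATG (an E-box of basic helix-loop-helix factors) and GGTGTGA (a T-box half-site). Sequences were those of RefSeq for GRCm38.p6, and 127 of the 171 and 131 of the 188 called genes had one. Shown are 1 peptide and 1 factor gene of each class whose window holds TAATTA (Gad1 neurons) or CAGATG (Slc17a6/Eomes neurons), on the strand of the gene, with every match to the 3 motifs in capitals. Tac1 (chr6:7554811-7555060, plus strand) and Sp8 (chr12:118847309-118847558, plus strand) hold TAATTA and were higher in Gad1 neurons, while Cck (chr9:121495695-121495944, minus strand) and Neurod2 (chr11:98329646-98329895, minus strand) hold CAGATG and were higher in Slc17a6/Eomes neurons. The Tac1 window holds CAGATG as well.
Tac1: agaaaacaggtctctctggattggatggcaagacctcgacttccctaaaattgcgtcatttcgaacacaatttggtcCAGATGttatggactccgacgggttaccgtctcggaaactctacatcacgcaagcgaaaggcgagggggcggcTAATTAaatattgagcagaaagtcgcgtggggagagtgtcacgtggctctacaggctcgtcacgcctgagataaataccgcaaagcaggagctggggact
Sp8: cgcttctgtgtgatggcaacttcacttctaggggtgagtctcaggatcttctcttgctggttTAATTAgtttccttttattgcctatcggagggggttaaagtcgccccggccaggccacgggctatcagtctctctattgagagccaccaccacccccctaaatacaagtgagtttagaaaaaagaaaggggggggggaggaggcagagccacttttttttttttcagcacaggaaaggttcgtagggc
Cck: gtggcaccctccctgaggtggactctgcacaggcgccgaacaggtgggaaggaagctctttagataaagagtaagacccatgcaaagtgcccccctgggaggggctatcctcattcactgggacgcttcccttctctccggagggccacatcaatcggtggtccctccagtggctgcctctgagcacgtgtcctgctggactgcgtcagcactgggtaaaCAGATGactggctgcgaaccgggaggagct
Neurod2: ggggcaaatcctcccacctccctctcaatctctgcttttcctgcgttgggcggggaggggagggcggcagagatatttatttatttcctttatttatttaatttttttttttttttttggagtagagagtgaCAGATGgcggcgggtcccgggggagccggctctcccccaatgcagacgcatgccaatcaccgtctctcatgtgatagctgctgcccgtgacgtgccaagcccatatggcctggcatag
TAATTA began 100 bases before the start of Tac1, with CAGATG at 173, and 188 before that of Sp8, and CAGATG began 30 before that of Cck and 118 before that of Neurod2. Over all called genes TAATTA and CAGATG were about as common as in all 27025 windows, while GGTGTGA differed more, on few genes. TAATTA was in 5.51% of windows of genes higher in Gad1 neurons, 6.87% of those higher in Slc17a6/Eomes neurons and 5.65% of all windows. CAGATG was in 17.3%, 14.5% and 16.3%, and GGTGTGA in 2.36% (3 genes), 6.11% (8 genes) and 3.84%. A match is a stretch of letters, and no binding was measured.

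Where the mature neurons stand against immature cells of the same sort was asked with 86 barcodes that held Dcx but no Snap25, Pdgfra or Slc1a3, called Dcx cells, with 32, 32 and 22 by rising age. All 3 libraries entered this test, with the library as a block. Of 5402 genes, 1288 (23.8%) were higher in the neurons and 879 (16.3%) were higher in the Dcx cells by the edgeR quasi-likelihood test at an adjusted p under 0.05. The neurons here pool all classes, and Slc17a6/Eomes neurons gave 400571 of their 647057 UMIs. In these sums a difference in the make-up of classes and one in maturity cannot be told apart. Median depth was 5201 UMIs in the neurons and 3055 in the Dcx cells. The DESeq2 Wald test called 574 and 348, and after thinning to 1500 UMIs edgeR called 359 and 317 of 1766 genes.

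The neurons were chosen for Syt1 and Snap25, and the Dcx cells for Dcx without Snap25. Differences in other genes of vesicle release or of immature neurons can follow from that choice, and their counts are descriptions. In this comparison 1746 of the 5402 genes reached 30 UMIs only through the side where they were higher. Of 17 tested vesicle release genes 16 were higher in the neurons, all but Bsn, beside 23.8% of all genes tested, and 12 of the 17 were of this kind. Vamp2 was at 1259, 1305 and 1455 CPM in the neurons and 113, 158 and 168 CPM in Dcx cells (3.09 ± 0.26, SE, n = 3 libraries, edgeR adjusted p = 1.28e-29). Syp, the vesicle protein synaptophysin, was at 547, 484 and 485 CPM against 18.8, 17.5 and 14.04 CPM (4.72 ± 0.44, SE, edgeR adjusted p = 3.25e-25). The groups lay far apart in each library. Tested glutamate receptor subunits were higher for 8 of 8, GABA-A subunits for 7 of 8 and voltage-gated channels for 15 of 20, beside the same 23.8%, and 6, 6 and 17 of the tested members had reached the minimum only through 1 side. Scn2b was at 127, 212 and 331 CPM in the neurons and had no UMI in the Dcx cells, at least 18.04-fold lower (edgeR adjusted p = 3.68e-15). Gria2, an AMPA receptor subunit, was already present in Dcx cells, at 395, 236 and 589.7 CPM against 869, 588 and 1125 CPM in the neurons (1.03 ± 0.23, SE, edgeR adjusted p = 5.29e-05).

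The noncoding RNAs that marked every neuron were lower in the Dcx cells, and 8 of 10 genes of neurofilaments and mature neurons were higher in the neurons, beside 23.8% of all genes tested, with 5 of the 10 tested only through 1 side. Snhg11 was at 5413, 6736 and 6262 CPM in the neurons and 197, 385 and 14.04 CPM in the Dcx cells (4.80 ± 0.25, SE, n = 3 libraries, edgeR adjusted p = 7.55e-78), and Meg3 at 14329, 15026 and 22138 CPM against 3244, 2643 and 3033 CPM (2.40 ± 0.20, SE, edgeR adjusted p = 1.04e-30). Among the genes with the largest differences, Vsnl1, a neuronal calcium sensor, was at 614, 986 and 154 CPM and had no UMI in the Dcx cells (at least 75.3-fold, edgeR adjusted p = 4.27e-36). Most of its UMIs were in Slc17a6/Eomes neurons. Cdhr1 (at least 37.4-fold) and Nrn1, a neurite outgrowth protein (at least 32.6-fold), were likewise absent from Dcx cells, as were Rasgrf1, Resp18 and Fabp3 (at least 20.6-fold, 25.4-fold and 22.4-fold). The 9 tested mitral and tufted cell genes and the 8 tested interneuron subtype genes were higher in the neurons, beside 23.8% of all genes tested, and 8 and 6 of them had reached the minimum only through the neurons.

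Genes of immature cells went the other way, against cells that were chosen for Dcx. The 11 tested genes of neuroblasts and immature neurons were lower in the neurons, beside 16.3% of all genes tested, and 3 of them had reached the minimum only through the Dcx cells. Their median log2 fold change was −3.70, beside 0.10 for all genes tested. Igfbpl1, a neuroblast gene of the insulin-like growth factor binding family, was at 14.98, 5.97 and 0 CPM in the neurons and 1975, 2092 and 1825 CPM in Dcx cells (−7.76 ± 0.36, SE, n = 3 libraries, edgeR adjusted p = 1.45e-96). Sox11, a transcription factor of immature neurons, was at 52.4, 68.7 and 0 CPM against 2624, 2582 and 3426 CPM (−5.71 ± 0.27, SE, edgeR adjusted p = 8.04e-90). Neither gene overlapped between the groups. The cell cycle genes Ccnd2 and Rrm2 were lower in the neurons. Ccnd2, a G1 cyclin, was at 74.9, 32.9 and 22.05 CPM against 2962, 5128 and 5083 CPM (−6.46 ± 0.28, SE, edgeR adjusted p = 1.03e-107), and Rrm2, a ribonucleotide reductase subunit, had no UMI in the neurons (at least 31.8-fold lower, edgeR adjusted p = 2.2e-18). Top2a and Pcna were lower as well. The further genes named for their size were RP23-407N2.2 among those higher in the neurons, and Hist1h2ap, Lockd, Carhsp1, Mfap2 and Vim among those higher in the Dcx cells.

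Of 11 tested interneuron transcription factors 10 were lower in the neurons, all but Zic1 (median −3.62), beside 16.3% of all genes tested, and Dlx1 was at 89.9, 26.9 and 66.1 CPM against 931, 989 and 1236 CPM (−4.23 ± 0.28, SE, n = 3 libraries, edgeR adjusted p = 2.06e-47). In Gad1 neurons alone Dlx1 was at 195, 157 and 277 CPM, also below the Dcx cells of the same library. Over the neurons of all classes together, Gad2 was lower than in the Dcx cells, Abat and Gad1 were higher, and Slc32a1 was not called. Of 7 tested early response genes 5 were lower (Jun, Fos, Dusp1, Ier2 and Egr1) and Nr4a1 was higher, beside 16.3% and 23.8% of all genes tested. Ifi27 was the 1 antigen presentation and interferon gene that differed of 3 tested, and Xist, the noncoding RNA of the inactive X chromosome, was at 112, 167 and 485 CPM against 649, 1076 and 659.9 CPM (−2.20 ± 0.25, SE, edgeR adjusted p = 2.13e-17).

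One list moved with a single library. The 4 tested oligodendrocyte genes were lower in the neurons, beside 16.3% of all genes tested, but the list summed to 6733 CPM in adult Dcx cells, 26.3 in middle-aged and 42.1 in aged ones. Mbp, myelin basic protein, was at 828, 8.75 and 14.04 CPM in the Dcx cells and 29.97, 32.9 and 66.1 CPM in the neurons. When barcodes called doublets were left out, the fitted log2 fold change of Mbp turned to 0.22. Of the glial genes, C1ql1 and Aldoc were higher in the neurons and S100b lower, and Gnal, listed with olfactory sensory neurons, was higher in the neurons.

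**Figure D4:**
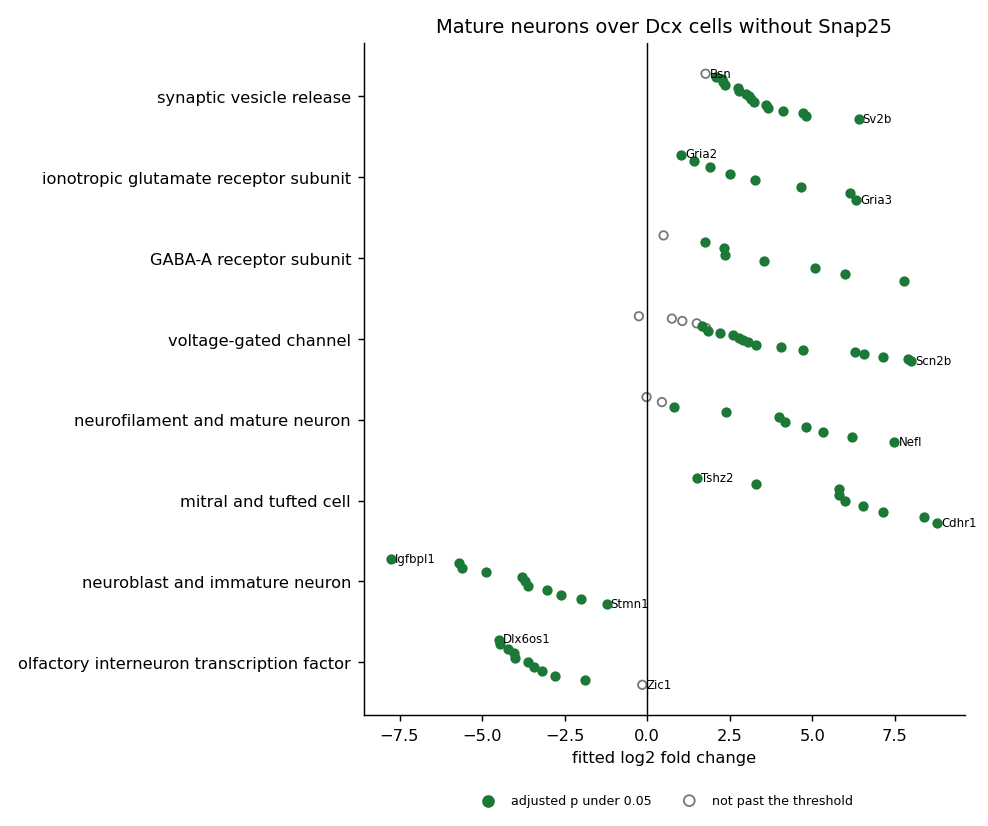
Each point is 1 tested gene of a list, at its fitted log2 fold change of mature neurons over Dcx cells in 3 libraries, filled where the edgeR adjusted p was under 0.05. The receptor, channel and vesicle release lists lie on the side of the neurons, and the neuroblast and interneuron factor lists lie on the side of the Dcx cells, with 11 of 11 and 10 of 11 genes lower in the neurons. The neurons were chosen for Syt1 and Snap25, and the Dcx cells for Dcx without Snap25.

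Whether gene levels in the mature neurons differ over ages was described without a test, as there was 1 library for each age. Among 494 genes with at least 100 UMIs, 16 (3.24%) were at least 2-fold higher in aged than in adult neurons and 38 (7.69%) at least 2-fold lower, with a median log2 ratio of −0.07. With the mean of the cells' CPM in place of summed counts, the shares were 3.85% and 4.05%. Between middle-aged and adult neurons 31 of 1099 genes (2.82%) were at least 2-fold higher and 25 (2.27%) lower, with a median of 0.08, and with the mean of the cells' CPM 4.37% and 2.73%. Because the make-up of classes differed between the libraries, some of the named genes are also given within the classes. In summed counts, fewer cells that express a gene and less RNA per cell cannot be told apart.

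The 2 genes furthest up in aged neurons rested on 1 or 2 cells. Calb2 was at 139, 215 and 2293 CPM, a log2 ratio of aged over adult of 4.05 (95% interval 3.49 to 4.63). Of its 104 UMIs in aged neurons, 98 came from the 2 Gad1 neurons, with 68 in one and 30 in the other. Penk was at 352, 14.9 and 2337 CPM, a log2 ratio of 2.73 (95% interval 2.32 to 3.15), and 103 of its 106 aged UMIs were in 1 cell. No adult Gad1 neuron exceeded 17 UMIs of either gene. Fxyd6, a regulator of the sodium pump, was at 202, 669 and 1036 CPM, 2.36 (95% interval 1.76 to 2.95), with 23 of 47 aged UMIs in 1 cell. The log2 ratio was 1.63 (95% interval 1.05 to 2.18) for Stmn4, a microtubule regulator, and 1.60 (95% interval 0.96 to 2.22) for Timp2, an inhibitor of metalloproteinases.

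Pcp4 was the gene furthest down in aged neurons, at 4286, 1574 and 661 CPM over the ages, a log2 ratio of aged over adult of −2.70 (95% interval −3.27 to −2.17). It was lower within both classes, at 7274, 4374 and 369 CPM in Gad1 neurons and 2485, 695 and 143 CPM in Slc17a6/Eomes neurons. A UMI of Pcp4 was found in 32 of 51 adult, 20 of 42 middle-aged and 3 of 8 aged neurons, and 23 of the 30 aged UMIs lay in 1 cell of neither class. The mitochondrial carrier gene Slc25a5 was at 981, 633 and 220.5 CPM (−2.15, 95% interval −3.23 to −1.25) and Vsnl1 at 614, 986 and 154 CPM (−1.99, 95% interval −3.33 to −0.92). The log2 ratio of Mgst3, a glutathione transferase, was −1.79 (95% interval −3.26 to −0.62). All of these compare 51 adult with 8 aged cells. The early response list summed to 1389 CPM in aged and 667 CPM in adult neurons, a log2 ratio of 1.06 (95% interval 0.62 to 1.48), and 48 of its 63 aged UMIs were in the 2 Gad1 neurons. The sex chromosome list was at 706 and 333 CPM, 1.08 (95% interval 0.45 to 1.68), with Xist at 485 CPM of the aged sum. Of the lists of other cells, the astrocyte list was at 419 and 131 CPM, 1.68 (95% interval 0.79 to 2.52), on 19 and 35 UMIs. The oligodendrocyte precursor list held 0 UMIs in aged and 48 in adult neurons. The part of these lists in the differences of aged neurons was not tested.

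In middle-aged neurons the genes furthest up were genes of the Slc17a6/Eomes class. Doc2g, a C2 domain protein, was at 59.9, 400.3 and 44.1 CPM in the 3 libraries, with a log2 ratio of middle-aged over adult of 2.74 (95% interval 1.99 to 3.59), but 112 of its 134 middle-aged UMIs were in 1 cell. Ly6g6e was at 179.8, 1078 and 44.1 CPM (2.58, 95% interval 2.15 to 3.05), and 1.91 within Slc17a6/Eomes neurons, where 1 cell held 168 of 357 UMIs. Igfbp2, an insulin-like growth factor binding protein, was at 131, 523 and 22.05 CPM (2.00, 95% interval 1.47 to 2.56), and 1.42 within that class. Most UMIs of each of the 3 genes lay in a few cells. Of the genes furthest down, Prkca, protein kinase C alpha, was at 382, 59.7 and 176 CPM (−2.68, 95% interval −3.45 to −1.98), with −2.02 in Gad1 neurons and −1.98 in Slc17a6/Eomes neurons. Atp2b1, a plasma membrane calcium pump, was at 847, 158 and 331 CPM (−2.42, 95% interval −2.88 to −1.98), with −2.35 and −0.58 in the classes. For Gpsm1, a G protein modulator, the log2 ratio was −2.29 (95% interval −3.06 to −1.59), with −1.16 and −1.98 in the classes. In Slc17a6/Eomes neurons the intervals of Atp2b1 and Gpsm1 reach above 0. Over all neurons, 2 lists of other cells were higher in the middle-aged library, astrocyte at 0.99 (95% interval 0.41 to 1.60) and olfactory sensory neuron at 1.21 (0.19 to 2.35). Lower were oligodendrocyte at −1.73 (−2.55 to −0.97), its precursors at −0.82 (−1.50 to −0.16) and ensheathing glia at −1.74 (−3.38 to −0.31). Of the sensory neuron list, Omp, Cnga2 and Stoml3 had no UMI in the neurons, while Gnal went from 4 adult to 24 middle-aged UMIs and Gng13 from 7 to 8. Of the ensheathing glia list, Frzb went from 9 to 1 UMIs and Npy from 4, in 1 cell, to 0, while Fabp7 went from 2 to 5. The part of these lists in the other differences was not tested.

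**Figure D5:**
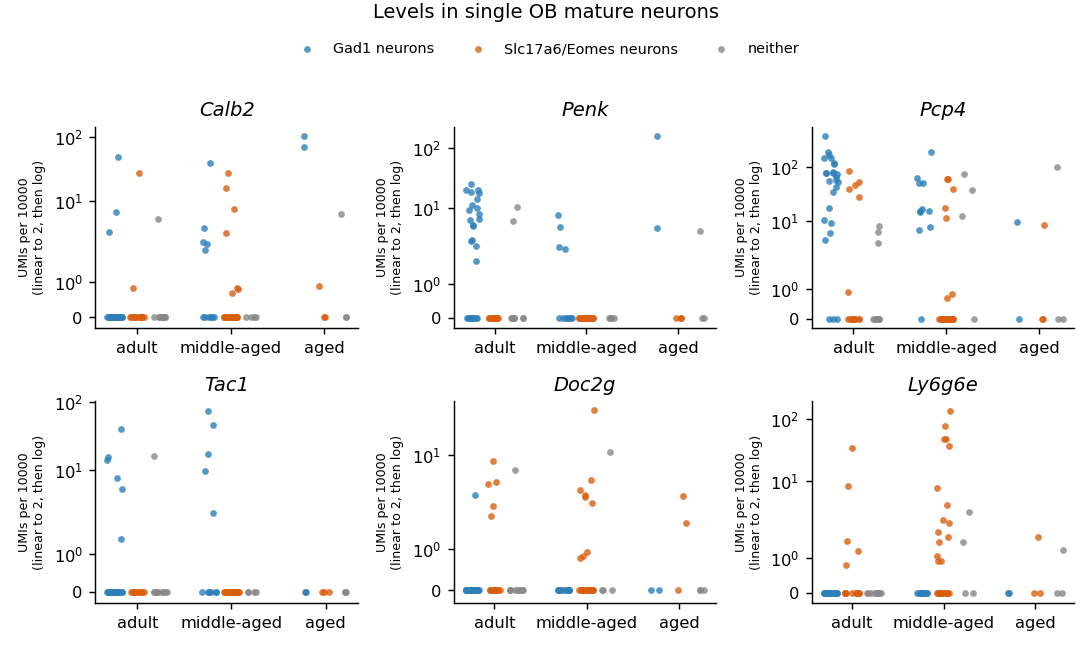
Single-cell levels of Calb2, Penk, Pcp4, Tac1, Doc2g and Ly6g6e in the 51 adult, 42 middle-aged and 8 aged neurons, in UMIs per 10000 on an axis that is linear to 2 and logarithmic above, coloured by class. The high aged values of Calb2 and Penk and the high middle-aged values of Doc2g and Ly6g6e belong to a few cells.

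Within each class, the lists were also summed for the adult and the middle-aged library. In Gad1 neurons the neurofilament and mature neuron list was at 21379 CPM in the middle-aged and 11654 CPM in the adult library, a log2 ratio of 0.88 (95% interval 0.76 to 0.99), and Meg3 made up 14083 and 6548 CPM of it. The list of immature neurons was higher as well, at 1.27 (95% interval 1.02 to 1.51), while that of GABA synthesis and transport was at −0.30 (95% interval −0.58 to −0.03). That list holds Gad1, which chose the class, and without Gad1 it was at 0.15 (95% interval −0.28 to 0.57). The synaptic vesicle release list was lower, at −0.34 (95% interval −0.50 to −0.19), at −0.22 (95% interval −0.41 to −0.03) without Syt1 and Snap25, which chose the cells, and at −0.66 (95% interval −0.84 to −0.48) without the 1 cell that held most of it. The list of ionotropic glutamate receptor subunits was at −0.55 (95% interval −0.86 to −0.25). The mitral and tufted cell list was at 2.14 (95% interval 1.15 to 3.21), on 29 and 13 UMIs in the middle-aged and adult library, but 20 of the 29 lay in 1 cell, and without it the ratio was 0.83 (95% interval −0.58 to 2.16). The immature neuron list was at 1.02 (95% interval 0.75 to 1.29) without the 1 cell that held most of it. For the glutamate release list the ratio was −2.60 (95% interval −4.95 to −0.94), on 3 and 36 UMIs. The early response list, genes induced by activity and by tissue dissociation, was at −1.26 (95% interval −1.93 to −0.64) in Gad1 neurons and at 1.08 (95% interval 0.54 to 1.65) in Slc17a6/Eomes neurons, where 63 of the 146 middle-aged UMIs lay in 1 cell and the ratio without it was 0.36 (95% interval −0.22 to 0.98). Its part in the other differences was not tested. The median over all 248 genes in Gad1 neurons was 0.01, with 4.84% at least 2-fold higher and 8.06% at least 2-fold lower. In single genes of the class, Nap1l5, Tmsb10 and Ly6h were furthest up, at 1994 against 531 CPM for Nap1l5, and Atp2b1, Itm2b and Mef2c, a transcription factor, furthest down.

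In Slc17a6/Eomes neurons, which held more UMIs per cell, 1.71% of 644 genes were at least 2-fold higher and 0.466% at least 2-fold lower in the middle-aged library. This class was made up differently in the 2 libraries. Of 15 adult cells 4 held both Slc17a6 and Eomes, 6 held Slc17a6 alone and 5 Eomes alone. Of 27 middle-aged cells 18 held both, 6 Slc17a6 alone and 3 Eomes alone. In the plot of summed markers, the interneuron sum was the higher one in 3 of 15 adult and 3 of 27 middle-aged cells of this class. The part of this make-up in the list ratios below was not tested. The mitral and tufted cell list was at 6259 CPM in the middle-aged and 4374 CPM in the adult library, 0.52 (95% interval 0.38 to 0.66). Without Eomes, which chose the class, the ratio was 0.52 (95% interval 0.38 to 0.67). The interneuron subtype list was at 1175 against 3394 CPM, −1.53 (95% interval −1.75 to −1.31), and most of that sum was Pcp4, at 695 against 2485 CPM. Vesicle release genes were level between these ages, at 0.01 (95% interval −0.09 to 0.10). Without Syt1 and Snap25, which chose the cells, they were at −0.05 (95% interval −0.16 to 0.07). Of the other lists, 3 were lower in the middle-aged library with an interval below 0. The oligodendrocyte precursor list was at −2.39 (95% interval −3.28 to −1.55), on 17 and 45 UMIs in the middle-aged and adult library, and at −1.81 (95% interval −2.78 to −0.88) without the 1 cell that held most of it. The oligodendrocyte list was at −1.35 (95% interval −2.36 to −0.37), on 17 and 22 UMIs, and at −2.10 (95% interval −3.40 to −0.92) without such a cell. The interneuron factor list was at −1.19 (95% interval −1.86 to −0.53), on 38 and 44 UMIs, and at −0.89 (95% interval −1.61 to −0.17) without such a cell. The part of these lists in the other differences was not tested. These intervals cover counting error only, and the spread between pools of mice is not in them.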

How the data were processed

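Single-cell libraries were made from sorted GFP-positive cells of the OB, SVZ and dentate gyrus (DG), 1 for each region and age, and the 3 OB libraries were used. The authors aligned the reads to mm10 with Cell Ranger 3.0.2, and the deposited values are raw UMI counts per gene and cell barcode, without normalization. GFP itself was not analysed here. The members and gene lists (23 lists, 240 genes) were chosen with earlier results of these data known, and no list is independent support. Counts were read in Python 3.11.15, and doublets were called with Scrublet in scanpy 1.11.5. The UMIs of each class were summed per library, since cells are not replicates, and genes with at least 30 UMIs over the sums were tested in R 4.3.3 with edgeR 4.0.16 (TMM, quasi-likelihood test, library as a block), a library entering with at least 5 cells in each class. The SE of a log2 fold change was its absolute value divided by the square root of the F statistic of the edgeR test. The steps were tested on simulated data. Genes that chose the cells were left out of the tests, and some genes of the lists or named by the rule are not reported here. CPM are UMIs scaled to a total of 1e6 over all UMIs of the summed cells, and a gene at 0 was given a floor of 3 UMIs over the class. Ages were compared by log2 ratios of CPM with exact conditional intervals, where both ages together gave a gene 100 UMIs or more. Named are the genes of the lists, the 12 (class contrast) or 8 (Dcx cells) called genes with the largest fitted change in each direction, and the 5 (aged) or 3 (middle-aged) genes furthest up and down by age beyond a log2 ratio of 1. Alternatives were DESeq2 1.42.0, other limits of depth, mitochondrial share and marker UMIs, thinning to 1500 UMIs, no block and each library left out. The study's bulk libraries and cluster names were not used here. Depth per library and intervals are given with the values, and intervals and floors cover counting error only. The classes of a library come from the same pool of mice, which pairs them.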

Additional observations from a re-analysis of the deposited data

Results flagged for a closer look

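For 5 genes of the lists or named by age, the ratio between Gad1 and Slc17a6/Eomes neurons had opposite directions in the adult and the middle-aged library, with both counting intervals away from 0. Egr1, an early response factor, had a log2 ratio of 2.57 in the adult and −2.77 in the middle-aged library, at 186 and 31.4 CPM in adult Gad1 and Slc17a6/Eomes neurons and 17.5 and 119 CPM in middle-aged ones, where 21 of the 30 UMIs of the last sum lay in 1 cell. Kcnd2, a potassium channel of the A-type current, had ratios of 2.08 and −2.61, at 133 and 31.4 CPM in adult Gad1 and Slc17a6/Eomes neurons and 17.5 and 107 CPM in middle-aged ones. The sums of middle-aged Gad1 neurons held 1 UMI each of Egr1 and Kcnd2. Slc25a5, the mitochondrial ADP/ATP carrier, had ratios of 0.41 and −0.62, at 1229.95 and 925 CPM in adult Gad1 and Slc17a6/Eomes neurons and 437 and 671 CPM in middle-aged ones. Nap1l5, a nucleosome assembly protein family member, had ratios of −0.91 (95% interval −1.37 to −0.45) and 1.81 (95% interval 1.45 to 2.18), at 531 and 996 CPM in adult Gad1 and Slc17a6/Eomes neurons and 1994 and 568 CPM in middle-aged ones. Ly6h, a Ly6 family surface protein, had ratios of −0.69 (95% interval −1.29 to −0.11) and 1.25 (95% interval 0.80 to 1.69), at 345 and 557 CPM in adult Gad1 and Slc17a6/Eomes neurons and 1172 and 492 CPM in middle-aged ones. Of 3492 genes 11 met this condition, each library is 1 pool of mice, and the difference was not tested.

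Outside the OB the same rule found 30 cells in the SVZ libraries (10 adult, 9 middle-aged and 11 aged) and 36 in the DG libraries (29, 6 and 1), which entered no comparison. The aged DG cell was 1 of 290 barcodes within the limits. In the SVZ 5, 9 and 6 of these held Gad1 without Slc17a6 or Eomes, 1 adult cell held both, and none held Slc17a6 or Eomes alone. In the adult DG 10 held Slc17a6 or Eomes and 8 held Gad1.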

How the results depend on the processing

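For the class contrast (171 genes higher in Gad1 neurons and 188 in Slc17a6/Eomes neurons), the counts were 17 and 13 with the DESeq2 Wald test, 68 and 69 at a minimum of 100 UMIs (1000 genes tested), 43 and 42 with at least 2 UMIs of Syt1 and Snap25, 25 and 25 after thinning to 1500 UMIs (689 genes), 80 and 65 with Slc17a6 alone for the second class, and 122 in Slc17a6/Eomes neurons at a mitochondrial limit of 5%. With all 3 libraries, an alternative added after seeing the data, they were 145 and 191, and from that fit they were 30 and 48 without the adult library and 63 and 73 without the middle-aged one. For the neurons against Dcx cells (1288 higher and 879 lower), the counts were 574 and 348 with DESeq2, 530 and 467 at a minimum of 100 UMIs, 359 and 317 after thinning, and 578 to 1129 and 416 to 782 when each library was left out, lowest without the middle-aged and highest without the aged one, and 803 were higher without the adult one. The fitted change of Mbp turned to 0.22 when doublets were left out. Without the 1 cell that held most UMIs of the list, an alternative added after seeing the data, the middle-aged over adult ratio of the glutamate release list in Slc17a6/Eomes neurons turned from 0.38 to −0.11. That list holds Slc17a6, which chose the class, and without Slc17a6, also added after seeing the data, the ratio was 0.55. The ratio of the GABA list in Gad1 neurons turned from −0.30 to 0.15 without Gad1, which chose the class. The aged share of 2.58% was 5.81% without the condition on Slc1a3, also added after seeing the data. With the mean of the cells' CPM, 4.05% of genes were at least 2-fold lower in aged neurons and 4.37% at least 2-fold higher in middle-aged ones. In Gad1 neurons alone 4.84% were higher and 8.06% lower in the middle-aged library.

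The classes of a library come from the same pool, and without the replicate block the class contrast called 110 and 109 genes, of which all 219 were also called with it. All 359 calls kept their direction without the block and with DESeq2, which called 30 of them. Among the 24 genes named for the size of their class difference, DESeq2 called Nmb, Pbx3, Snx7 and Tshz2, did not call 16 others, and gave no adjusted p for the rest, as for 1016 of the 3492 genes in all. The causes were not tested. The aged library held 2 Gad1 and 3 Slc17a6/Eomes neurons, at medians of 5418.5 and 6214 UMIs, so its class values are limited by the number of cells.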

Other observations

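The 22 barcodes that held Syt1, Snap25 and Slc1a3 and were left out of the neurons held neuronal noncoding RNAs. Meg3 was at 11261, 14705 and 11733 CPM in the adult, middle-aged and aged library and was found in 20 of 22 cells, and Snhg11 was at 5292, 6263 and 4154 CPM and found in 18. Their astrocyte genes other than Slc1a3, which chose them, summed to 119, 184 and 1236 CPM in the 3 libraries, against 131, 259.9 and 419 CPM in the mature neurons, and 83 of their 102 UMIs of these genes were in the aged library. In the astroglia the sums were 9813, 11237 and 11051 CPM. The kind of cell they are was not tested.

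Among the Gad1 neurons, Synpr was found in all 11 cells with Th and all 10 cells with Calb2. Dcx was found in 8 of the 11 cells with Th, 9 of the 10 with Calb2 and 12 of the 24 with Penk. These are counts of cells with a UMI, and the cells differ in depth.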
